A study of Canis lupus familiaris with 8 samples.

Results

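The difference between 2 sorting effects was examined: the change from unsorted to sorted cells in the doxorubicin-resistant canine mammary carcinoma line CMT-Star, minus the same change in its doxorubicin-sensitive parent line CMT-Stylo. This difference of differences, called the interaction below, used all 8 Cy3 arrays of the series, 2 for each of 4 groups. Stylo parent was the untreated, unsorted CMT-Stylo line. Stylo CSC were cells sorted from it as CD44+, CD24-/low and positive for aldehyde dehydrogenase (ALDH) activity, which the submitters call cancer stem cells. Star parent was the unsorted subline raised from CMT-Stylo under increasing doxorubicin until it tolerated 100 nM, and Star CSC were cells sorted from that subline by the same 3 markers. Both Star groups are labelled doxorubicin treated and both Stylo groups non treated. All groups are cultures of 1 line and 1 subline in the same medium, and the labels do not describe a mock sort of the parents, so passage through the sorter and selection by the markers cannot be told apart.

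A probe was kept if its signal was well above background on all 8 arrays, which held for 18344 of the 43603 gene probes on the array. Only 1166 of these probes (6.36%) could be given a symbol, for 729 of the 1458 named genes, so most of the measured response is counted below without names. The 8 arrays are bulk RNA, in which fewer cells of a type and less RNA per cell cannot be told apart. Separate cultures are not mentioned for the replicates of a group, and the p-values therefore cover only array-to-array spread, which could be technical.

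Sorting on CD44, CD24 and ALDH is used in breast cancer to enrich cells that form tumours and resist drugs. Such cells are often described as mixtures of mesenchymal-like and epithelial-like states, with active matrix, cytokine and hypoxia programmes and with drug efflux pumps. Resistance selected by an anthracycline can itself raise efflux pumps and stress pathways. A sort from a selected subline and a sort from its parent therefore start from different baselines, and the interaction asks whether the sort moved genes differently from each of them.

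The arrays were not equally bright. The 75th percentile of processed signal was 88.3 and 69.2 on the Stylo parent arrays and between 296 and 536 on the other 6, and 47.4% and 46.7% of probes were well above background there against 55.5% to 60.6%. The brightest 100 probes held 32.9% and 34.0% of the signal on the Stylo parent arrays and 12.9% to 22.9% on the others, a difference in shape that subtracting a constant does not remove. Over the probes kept, replicate arrays correlated at 0.985 or more. Slide 1 carried the 4 Stylo arrays and slide 2 the 4 Star arrays, with parents at positions 1 and 2 and CSC at positions 3 and 4 of each slide. An additive effect of slide or position cancels in the interaction, whereas one that differs between parents and sorted cells cannot be told apart from it. Epithelial markers were few: of the fixed markers, CDH1, KRT14, KRT19 and CLDN3 were named on the array, KRT14 was detected on 8 arrays, CDH1 and CLDN3 on 6 and KRT19 on 3.

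The sort effects of the 2 lines differed at many probes, by a number that depended on the scaling. The interaction was called at 9815 of 18344 probes (53.5%), 5696 of them positive (31.1%), meaning that the Star change lay above the Stylo change, and 4119 negative (22.5%). A call needed an adjusted p under 0.05 in limma, over all 26819 probes fitted, and an interaction of at least 1 on the log2 scale, which is 2-fold. Over all probes fitted, 52.1% were called. Among the 18344 probes there were 7785 calls with normexp background correction and 5225 when the arrays were scaled on their spike-in controls. The sort effect within CMT-Stylo was called at 9873 probes (53.8%), 3753 higher (20.5%) and 6120 lower (33.4%) in the sorted cells. Within CMT-Star it was called at 1293 (7.05%), 386 higher (2.1%) and 907 lower (4.94%). With spike-in scaling the order of these counts turned, to 12370 in CMT-Stylo and 15629 in CMT-Star, with median effects of 1.77 and 1.598 over all probes. The median size of the sort effect was 1.11 in CMT-Stylo and 0.34 in CMT-Star on the log2 scale, with a median standard error (SE) of 0.14 in both. The fit used 1 shared spread per probe, so the SEs of the 2 sort effects are equal by construction, here and below. Replicate spread itself differed. Differences between replicate arrays had an SD of 0.30 in Stylo parent, 0.16 in Stylo CSC, 0.43 in Star parent and 0.44 in Star CSC.

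The balance of directions depended on the scaling of the arrays. Positive interactions made up 58.0% of the calls, but 47.8% with normexp background correction and 35.2% with spike-in scaling. Rises made up 38.0% of the Stylo calls, 55.8% with median scaling and 98.8% with spike-in scaling. Among the Star calls they made up 29.9%, against 62.0% with median scaling and 99.5% with spike-in scaling. The median interaction over all 18344 probes was 0.25, and it was 0.05 with median scaling, 0.07 with the percentile taken over probes detected on all arrays, 0.13 with quantile normalization, 0.10 with normexp and -0.21 with spike-in scaling. Values below are at the 75th percentile scaling and are to be read against that median.

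**Figure D1:**
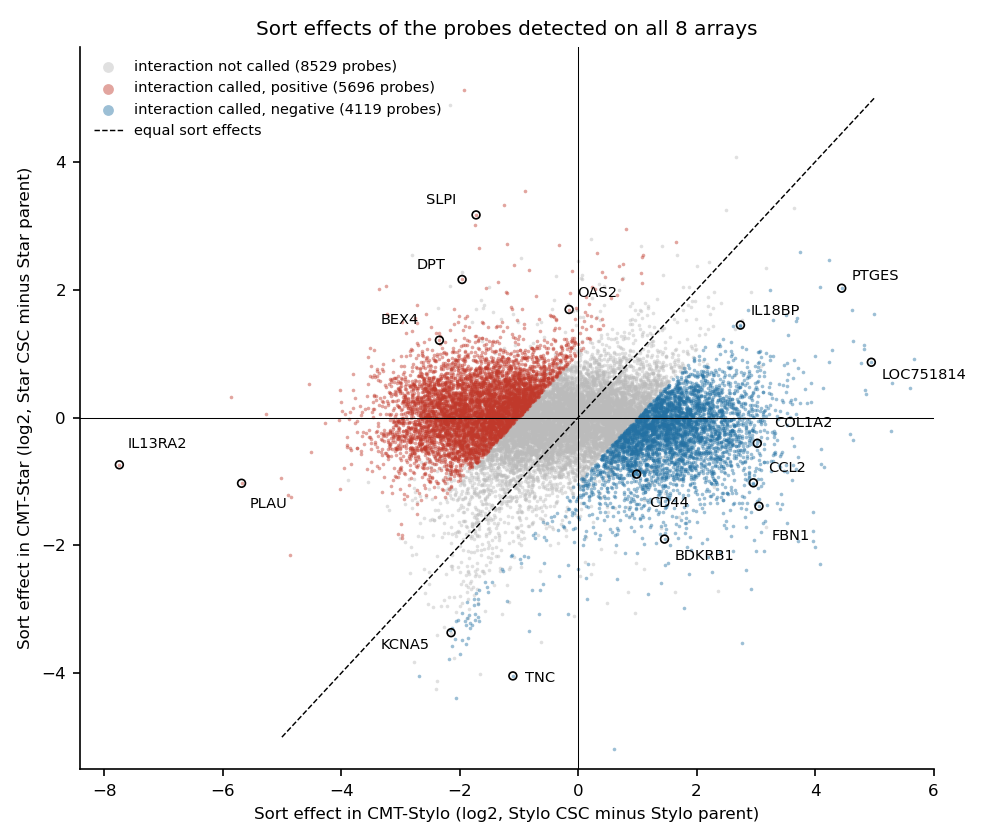
Each point is a probe detected on all 8 arrays, placed by its sort effect in CMT-Stylo (x axis, log2) and in CMT-Star (y axis, log2), with positive interaction calls in red, negative ones in blue and uncalled probes in grey; the dashed line marks equal sort effects. The cloud is wide along the CMT-Stylo axis and narrow along the CMT-Star axis, and SLPI, DPT and BEX4 lie in the quadrant opposite FBN1, CCL2 and BDKRB1.

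The 2 sort effects, which share no arrays, had a Pearson correlation of 0.02 and a Spearman correlation of -0.00041 across the 18344 probes, given as a description because probes are not independent. Of the 9815 interaction calls, 7761 (79.1%) had a called sort effect in CMT-Stylo alone and 305 (3.11%) in CMT-Star alone. Both effects were called in opposite directions at 320 (3.26%), in the same direction with unequal size at 119 (1.21%), and neither was called at 1310 (13.3%). In 4697 calls (47.9%) the Stylo parent mean stood more than 1 log2 unit from the other 3 group means, which lay within 1 unit of each other; in 2889 it stood above them and in 1808 below. The same held for Stylo CSC in 337 calls, Star CSC in 82 and Star parent in 44. Stylo parent thus was the group that stood apart most often, and it was also the group with the dim arrays, whose part in these counts was not tested. With quantile normalization, which gives all arrays the same distribution of signal, the interaction was called at 9365 probes and Stylo parent stood apart in 4344. With spike-in scaling it stood apart in 404 of 5225.

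Seen the other way, the interaction is the gap between the lines among sorted cells minus the gap among parents. Star parent differed from Stylo parent at 10613 probes (57.9%) and Star CSC from Stylo CSC at 4528 (24.7%). In 8044 of the 9815 interaction calls (82.0%) the gap between lines was smaller among sorted cells than among parents, and in 1771 it was larger.

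Among the 729 named genes, each represented by its brightest probe, 393 were called (53.9%), 244 positive (33.5%) and 149 negative (20.4%), with a median interaction of 0.39. Of these 393 calls, 295 rested on a called change in CMT-Stylo alone, 15 on one in CMT-Star alone, 16 on changes in opposite directions and 13 on changes in the same direction, and 54 had neither effect called.

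At the 75th percentile scaling, genes with opposite changes were the clearest cases of a sort effect that differed in kind. The opposite directions depended on the scaling. Of the 320 probes with opposite calls, 295 kept them with quantile normalization, 195 with median scaling, 95 with normexp and 6 with spike-in scaling. SLPI, a secreted inhibitor of neutrophil elastase, had scaled levels (log2 signal minus the array's 75th percentile) of 0.60 and 0.65 on the Stylo parent arrays, -1.16 and -1.03 on Stylo CSC, -1.63 and -1.63 on Star parent, and 1.54 and 1.55 on Star CSC. Sorted cells were the low group in CMT-Stylo and the high group in CMT-Star, and no 2 groups overlapped. SLPI fell by 1.72 ± 0.09 (SE) in CMT-Stylo and rose by 3.17 ± 0.09 in CMT-Star, an interaction of 4.89 ± 0.13 (adjusted p = 4.92e-05). Its other probe gave 4.76. DPT, the matrix protein dermatopontin, was at 0.17 and 0.52 in Stylo parent, -1.59 and -1.64 in Stylo CSC, -1.59 and -1.87 in Star parent, and 0.38 and 0.49 in Star CSC. The 2 high groups were Stylo parent and Star CSC, and their ranges overlapped, as did those of the 2 low groups. DPT changed by -1.96 ± 0.16 in CMT-Stylo and 2.16 ± 0.16 in CMT-Star (interaction 4.12 ± 0.22, adjusted p = 5.82e-05).

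GUCY1B1, a subunit of the nitric oxide receptor guanylate cyclase, read 0.71 and 0.62 in Stylo parent, -1.59 and -1.75 in Stylo CSC, -0.43 and -0.32 in Star parent, and 1.00 and 0.80 in Star CSC. Here Star CSC was the highest group and Stylo CSC the lowest, with no overlap, and the interaction was 3.61 ± 0.17 (adjusted p = 4.95e-05). BEX4, of the brain-expressed X-linked family, stood at 3.13 and 3.28 in Stylo parent, 0.88 and 0.85 in Stylo CSC, 0.79 and 0.59 in Star parent, and 1.93 and 1.88 in Star CSC. Stylo CSC stood just above Star parent, the lowest group, no groups overlapped, and the interaction was 3.55 ± 0.16 (adjusted p = 4.92e-05).

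The reverse pattern, a rise in CMT-Stylo and a fall in CMT-Star, was led by a matrix gene and a chemokine. FBN1, which encodes fibrillin of elastic microfibrils, had levels of 1.70 and 1.74 in Stylo parent, 4.73 and 4.81 in Stylo CSC, 4.77 and 4.71 in Star parent, and 3.34 and 3.37 in Star CSC. Stylo CSC and Star parent overlapped at the top, and Stylo parent was far below the other groups. FBN1 rose by 3.05 ± 0.09 in CMT-Stylo, 8.30-fold, and fell by 1.39 ± 0.09 in CMT-Star (interaction -4.44 ± 0.13, adjusted p = 4.92e-05), and its 3 probes ran from -5.09 to -4.44. CCL2, the monocyte-attracting chemokine, was at 3.79 and 3.71 in Stylo parent, 6.67 and 6.75 in Stylo CSC, 3.28 and 3.45 in Star parent, and 2.28 and 2.41 in Star CSC. Sorted cells held both the highest and the lowest levels of CCL2, without overlap. The chemokine rose 7.78-fold in CMT-Stylo and fell 2.03-fold in CMT-Star (interaction -3.98 ± 0.16, adjusted p = 4.92e-05).

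ADM, the hypoxia-induced peptide adrenomedullin, gave 2.52 and 2.50 in Stylo parent, 4.06 and 4.01 in Stylo CSC, 4.35 and 4.36 in Star parent, and 3.29 and 3.26 in Star CSC. The 4 groups did not overlap, and the unsorted cells of the 2 lines were the extremes (interaction -2.60 ± 0.12, adjusted p = 4.92e-05). BDKRB1, the inducible bradykinin receptor, rose by 1.46 ± 0.39 and fell by 1.90 ± 0.39 (interaction -3.36 ± 0.55, adjusted p = 0.00247), with Star parent arrays at -0.55 and -1.53 and Star CSC arrays at -3.36 and -2.52. ARHGAP1 rose by 1.66 ± 0.18 and fell by 1.56 ± 0.18 (interaction -3.22 ± 0.25, adjusted p = 0.000147). ARHGAP1 was not called with normexp (-0.80). The remaining named genes with opposite calls were MAPT (-2.999 ± 0.21), BMP7 (-2.64 ± 0.13), SLC1A3 (-2.63 ± 0.41), DLC1 (-2.51 ± 0.14) and APP (-2.21 ± 0.15), which rose in CMT-Stylo, and ASB3 (3.004 ± 0.15) and FGFR1OP2 (2.59 ± 0.24), which fell there.

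**Figure D2:**
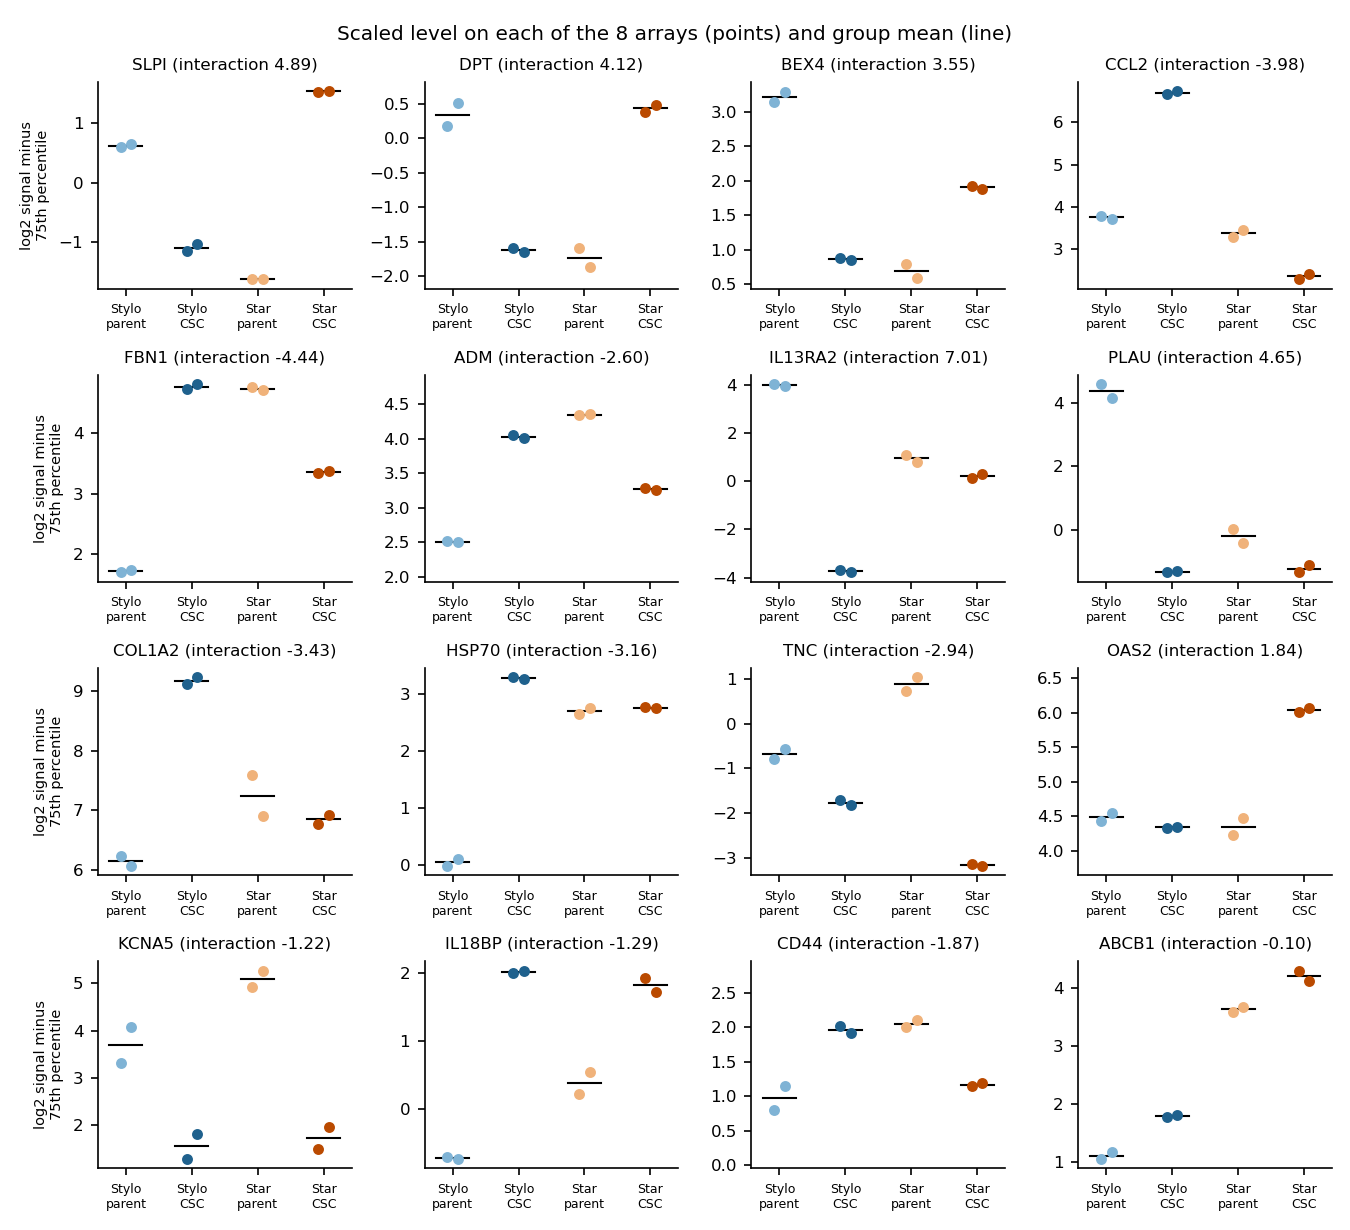
Each panel shows 1 gene with its scaled level on the y axis (log2 signal minus the array's 75th percentile), a point for each array and a line at the mean of each of the 4 groups (n = 2). The y axes differ between panels, so heights compare within a panel only. SLPI, DPT and BEX4 fall in Stylo CSC and rise in Star CSC, FBN1, CCL2 and ADM do the reverse, OAS2 stands out in Star CSC alone, and KCNA5 falls in both lines.

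Beside SLPI and DPT, the other 4 of the 6 largest positive interactions belonged to genes that fell in CMT-Stylo. IL13RA2, the decoy receptor for interleukin-13, was at 4.04 and 3.98 in Stylo parent, -3.68 and -3.79 in Stylo CSC, 1.09 and 0.82 in Star parent, and 0.12 and 0.32 in Star CSC. Both Star groups lay between the 2 Stylo groups, and no groups overlapped. IL13RA2 fell 214-fold in CMT-Stylo (-7.74 ± 0.13), while the Star change of -0.74 ± 0.13 was not called, an interaction of 7.01 ± 0.19 (adjusted p = 4.92e-05). PLAU, the urokinase plasminogen activator, had levels of 4.58 and 4.15 in Stylo parent, -1.34 and -1.29 in Stylo CSC, 0.03 and -0.41 in Star parent, and -1.33 and -1.11 in Star CSC. The sorted cells of the 2 lines overlapped at the low end. PLAU fell 51.3-fold in CMT-Stylo and 2.04-fold in CMT-Star (interaction 4.65 ± 0.30, adjusted p = 8.03e-05). LOC474938, a glutathione S-transferase alpha gene by its RefSeq synonyms, also fell in both lines, by 4.90 ± 0.09 in CMT-Stylo and by 1.21 ± 0.09 in CMT-Star (interaction 3.69 ± 0.12, adjusted p = 4.92e-05). CA2, a cytosolic carbonic anhydrase, had an interaction of 4.23 ± 0.84 (adjusted p = 0.00565) with Star parent arrays at -2.13 and -0.15, a wide pair. It was 3.24 without Star parent replicate 1 and 5.22 without Star parent replicate 2, and its 2 probes gave 2.98 and 4.23.

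Negative interactions of similar size came from genes that rose in CMT-Stylo. LOC751814, a serum amyloid A gene by its RefSeq synonym, had levels of 1.87 and 2.03 in Stylo parent, 6.89 and 6.90 in Stylo CSC, 0.85 and 0.90 in Star parent, and 1.81 and 1.67 in Star CSC. Stylo CSC stood far above all other groups. LOC751814 rose 30.9-fold in CMT-Stylo and by 0.87 ± 0.10, not called, in CMT-Star (interaction -4.08 ± 0.15, adjusted p = 4.92e-05). LOC403585, another locus with the serum amyloid A synonym, gave -3.93 ± 0.14; probes of such related genes can share signal, so the 2 values are not independent. IGF2R, the receptor that carries mannose-6-phosphate-tagged enzymes to lysosomes, was at 1.21 and 1.39 in Stylo parent, 4.31 and 4.22 in Stylo CSC, 5.31 and 5.25 in Star parent, and 4.35 and 4.40 in Star CSC. The sorted cells of the 2 lines differed by 0.10 on average, and Stylo parent was low (interaction -3.87 ± 0.15, adjusted p = 4.92e-05). MYH9, the heavy chain of nonmuscle myosin, stood at 2.61 and 2.68 in Stylo parent, 5.76 and 5.82 in Stylo CSC, 5.61 and 6.17 in Star parent, and 5.25 and 5.15 in Star CSC. Stylo CSC lay within the range of Star parent, and Stylo parent lay apart (interaction -3.84 ± 0.27, adjusted p = 0.000101), with 3 probes from -4.31 to -3.84.

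Some genes singled out Stylo CSC rather than Stylo parent. ABCC1, a drug efflux pump, was at -1.10 and -0.96 in Stylo parent, 2.22 and 1.88 in Stylo CSC, -0.09 and 0.00 in Star parent, and -0.60 and -0.64 in Star CSC. Stylo CSC was high and the other groups lay within 1 log2 unit of each other. THY1, a surface glycoprotein of fibroblasts and mesenchymal cells, had an interaction of -3.12 ± 0.19, but its other probe was called the other way (1.78), so its direction is uncertain. CDH2, the neural cadherin, gave -1.77 ± 0.18, and TRIB1 (-2.43 ± 0.13), HMGA1 (-2.37 ± 0.17) and NFKB1 (-2.03 ± 0.15) were likewise high in Stylo CSC alone. The other NFKB1 probe was not called (-0.74), and 2 of the 3 CDH2 probes were called (-1.90 to -0.58). SVIP (2.95 ± 0.18), MDM2 (2.36 ± 0.27), the inhibitor of p53, and PROCR (1.81 ± 0.13) were low there alone. In all, 24 named genes with a called interaction had Stylo CSC as the group apart, 156 had Stylo parent, 6 Star CSC and 3 Star parent.

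Few genes owed their interaction to CMT-Star alone. OAS2, an interferon-induced synthetase that activates antiviral RNA decay, was at 4.43 and 4.54 in Stylo parent, 4.33 and 4.35 in Stylo CSC, 4.22 and 4.47 in Star parent, and 6.005 and 6.07 in Star CSC. Star parent overlapped both Stylo groups and Star CSC stood above all of them. OAS2 rose by 1.69 ± 0.12 in CMT-Star (interaction 1.84 ± 0.17, adjusted p = 0.000237), and was not called with normexp (0.61) or spike-in scaling (1.39). OAS1, of the same family, rose by 2.04 ± 0.19 in CMT-Star and stood at 0.24 ± 0.19 in CMT-Stylo (interaction 1.80 ± 0.27). Summed leukocyte markers were also highest in Star CSC, at 1.05 and 1.11 against 0.094 to 0.330 on the other arrays in units of the array's 75th percentile signal. Of the 6 named markers, CD79A was detected on 6 arrays, CD86 on 4, TYROBP on the 2 Star CSC arrays, CD8A on 1 and CD4 and FCER1G on 0, and their part in the interferon values was not tested. Calls in CMT-Star alone were also made for PDPN (-1.41 ± 0.17), FGFR2 (-2.13 ± 0.13), MET (-1.66 ± 0.31) and BMP4 (-2.21 ± 0.57), a membrane glycoprotein, 2 receptor tyrosine kinases and a secreted morphogen that fell in Star CSC. Another MET probe did not show this fall. Before scaling it read 127.4 and 168.5 in Star parent and 253.4 and 160 in Star CSC. It was detected in Stylo CSC (72.7 and 83.4) but not in Stylo parent.

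TNC, the matricellular glycoprotein tenascin-C, fell in both lines but further in CMT-Star. Its levels were -0.79 and -0.56 in Stylo parent, -1.72 and -1.83 in Stylo CSC, 0.72 and 1.04 in Star parent, and -3.15 and -3.18 in Star CSC. Star CSC was the lowest group and Star parent the highest, without overlap. TNC fell 2.14-fold in CMT-Stylo and 16.5-fold in CMT-Star (interaction -2.94 ± 0.20, adjusted p = 0.000101).

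Both sort effects were called upward at 104 probes and downward at 402. The interaction was called at 40 of the 104 and 79 of the 402. Choosing probes whose 2 effects share a direction limits their difference, so these shares cannot be compared with the 53.5% over all probes. A missing call does not show that the 2 effects were equal. Falls of both lines with small interactions were measured in F3, which encodes tissue factor (-0.08 ± 0.14), NTS, neurotensin (-0.03 ± 0.13), and MME, the surface peptidase neprilysin (0.03 ± 0.12). KCNA5, a voltage-gated potassium channel, fell by 2.14 ± 0.33 and by 3.37 ± 0.33, and its interaction of -1.22 was not called (adjusted p = 0.0578), though it was with quantile normalization (-1.82), cyclic loess (-1.44), normexp (-2.32), the detected-probe percentile (-1.40), median scaling (-1.42) and with the array Stylo parent replicate 2 left out (-1.599). DUOX1, an epithelial oxidase, fell by 2.13 ± 0.27 and by 3.29 ± 0.27 (interaction -1.16 ± 0.38, adjusted p = 0.0369). The DUOX1 call ended with cyclic loess (-1.06, adjusted p = 0.0569) and when any array other than Stylo parent replicate 2 or Star parent replicate 1 was left out, with interactions of -0.76 (Stylo parent replicate 1), -1.18 (Stylo CSC replicate 1), -1.14 (Stylo CSC replicate 2), -0.98 (Star parent replicate 2) and -1.16 (Star CSC replicate 1 or 2).

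The shared rises were led by PTGES, the inducible prostaglandin E synthase, at 1.24 and 1.31 in Stylo parent, 5.77 and 5.69 in Stylo CSC, 0.32 and 1.65 in Star parent, and 2.92 and 3.11 in Star CSC. Both sorted groups were above both parents, and the parents overlapped. PTGES rose 21.9-fold and 4.07-fold (interaction -2.43 ± 0.57, adjusted p = 0.0107; -3.09 and -1.76 without Star parent replicate 1 and 2, respectively). IL18BP, a secreted antagonist of interleukin-18, had levels of -0.71 and -0.74 in Stylo parent, 2.00 and 2.04 in Stylo CSC, 0.22 and 0.53 in Star parent, and 1.93 and 1.72 in Star CSC. The lines started apart and ended 0.19 apart (interaction -1.29 ± 0.20, adjusted p = 0.00194; -0.62 and not called with normexp). CA9, the hypoxia-induced carbonic anhydrase, rose 5.48-fold and 2.35-fold (interaction -1.22 ± 0.21, adjusted p = 0.00302), and its other probe was not called (-0.84). The keratin KRT15 (1.20 ± 0.18) and the immunoproteasome subunit PSMB9 (1.44 ± 0.15) rose in both lines and more in CMT-Star.

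Gene groups differed in the side on which they fell. Counts of each list, here and below, are to be read against the 53.9% called over all named genes. Among 6 collagens and matrix genes detected on all arrays, 5 had a negative and 1 a positive call, beside 20.4% negative and 33.5% positive over all named genes, with a median of -3.34. COL1A2, a chain of type I collagen, was at 6.23 and 6.07 in Stylo parent, 9.13 and 9.23 in Stylo CSC, 7.59 and 6.91 in Star parent, and 6.78 and 6.92 in Star CSC. The 2 Star groups overlapped and Stylo CSC was above all others (interaction -3.43 ± 0.32, adjusted p = 0.00027; 6 probes from -4.19 to -3.07). BGN, the proteoglycan biglycan, gave -3.78 ± 0.21, COL1A1 -3.26 ± 0.17 and DCN, decorin, -1.53 ± 0.14, while DPT was the positive call. The summed signal of 5 fibroblast markers, which shares the 2 collagen genes and DCN with this list, was 91.2 and 84.4 in Stylo parent, 608 and 649 in Stylo CSC, 198 and 160 in Star parent, and 114 and 125 in Star CSC, and all 5 were detected on every array. This sum is mostly COL1A2 signal. Of the 5 markers, 4 had negative calls, with THY1 of uncertain direction as given above, and PDGFRB stood at 1.42, not called. Whether fibroblasts took part was not tested.

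Of 25 inflammatory cytokines and NF-kB targets named on the array, only 6 were detected on all arrays, and the others have no interaction here. The 6 members had 4 negative calls (median -1.79), beside 20.4% negative over all named genes. These were CCL2, PTGES, NFKB1, whose other probe was not called, and ICAM1, an adhesion molecule for leukocytes (-1.55 ± 0.15). CXCL8 (-0.85) and CCL24 (0.09) were not called, though 1 of the 4 CXCL8 probes was called negative. Glycolysis and hypoxia genes had 5 negative calls among 6 (median -1.91). Besides ADM and CA9 these were the glucose transporter SLC2A1 (-2.18 ± 0.17), GAPDH (-2.04 ± 0.27) and the oxygen-regulated transcription factor HIF1A (-1.78 ± 0.13). VEGFA stood at -0.50, not called, while its other probe was called at -1.97. For HIF1A the levels were 1.99 and 1.99 in Stylo parent, 3.09 and 3.19 in Stylo CSC, 3.46 and 3.47 in Star parent, and 2.81 and 2.85 in Star CSC, so that Stylo parent was the lowest group and the sorted cells of the lines lay closer together than the parents.

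Drug transporters and vault genes had 4 negative calls among 5 members (median -2.17), beside 20.4% negative over all named genes. Beside ABCC1 (-3.66 ± 0.20, adjusted p = 5.71e-05) these were MVP, the major vault protein (-2.85 ± 0.34), ABCC5 (-2.17 ± 0.27; -0.94 and not called with normexp) and ABCC4 (-1.18 ± 0.33). ABCB1, the P-glycoprotein pump for anthracyclines, was the exception. Its levels were 1.05 and 1.16 in Stylo parent, 1.77 and 1.81 in Stylo CSC, 3.59 and 3.67 in Star parent, and 4.29 and 4.12 in Star CSC. The lines stood far apart with no overlap, and the sorted cells were above the parents in both. The sort effect was 0.68 ± 0.11 in CMT-Stylo and 0.58 ± 0.11 in CMT-Star, neither called, and the interaction was -0.10 with a 95% confidence interval from -0.47 to 0.27 (0.012 with quantile normalization).

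Lysosome and autophagy genes had 6 negative and 2 positive calls among 12 (median -0.96), beside 20.4% negative and 33.5% positive over all named genes. IGF2R, the cholesterol exporter NPC1 (-3.21 ± 0.38), the heparan sulfamidase SGSH (-2.86 ± 0.17) and the carboxypeptidase CTSA (-2.25 ± 0.13) were negative, and the collagen-degrading cathepsin CTSK was positive (2.09 ± 0.16). MHC and antigen processing genes had 4 negative and 1 positive call among 6 (median -1.24). The peptide-loading factors TAP1 (-1.57) and TAP2 (-1.45) were negative, and so was TAPBP, tapasin (-1.96 ± 0.19), which was not called with normexp (-0.65) and whose other probe stood at 0.44, not called. DLA-64 was the fourth negative call (-1.02), but another of its 3 probes was called the other way (1.80), so its direction is uncertain. Actin and myosin genes had 3 negative calls among 5 (median -1.26), with EZR, which links actin to the membrane, at -1.74 ± 0.39. Only 1 of the 3 EZR probes was called (-1.74 to -0.62). Heat shock and chaperone genes had 2 among 6 (median -0.71). HSP70, the inducible chaperone, was at -0.01 and 0.12 in Stylo parent, 3.29 and 3.26 in Stylo CSC, 2.65 and 2.76 in Star parent, and 2.77 and 2.75 in Star CSC, so that Stylo parent lay apart and the Star groups overlapped (interaction -3.16 ± 0.14, adjusted p = 4.92e-05).

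Genes of protein synthesis, secretion and mitochondria formed 5 lists whose medians were positive at this scaling and negative with normexp. The median over all named genes was itself 0.39 at this scaling. Translation factors and Rab GTPases had positive calls at shares below that over all named genes. Beside the 33.5% positive over all named genes, ribosomal proteins had 15 positive and no negative calls among 24 members, with a median of 1.25, which turned to -0.037 with quantile normalization and -0.25 with normexp. RPL18 was at 8.62 and 8.58 in Stylo parent, 6.63 and 6.73 in Stylo CSC, 6.47 and 6.50 in Star parent, and 6.51 and 6.58 in Star CSC. Stylo parent was high and the Star groups did not differ beyond their spread. RPL18 had an interaction of 1.98 ± 0.13 (adjusted p = 8.71e-05), 1.53 with spike-in scaling and 0.55 with normexp, neither called. In CMT-Stylo 22 of the 24 fell, beside 37.4% of all named genes, and in CMT-Star none was called, beside 6.86% lower over all named genes; rises and falls in CMT-Stylo trade places with scaling, as given above. Translation factors had 1 positive call among 5, EIF4A1, a helicase of cap-dependent initiation (1.41 ± 0.27), which was not called with quantile normalization (0.87), cyclic loess (0.93), spike-in scaling (0.95) or normexp (0.05); the list median of 0.50 turned to -0.80 with normexp.

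ER targeting and translocon genes had 10 positive and 1 negative call among 16 (median 1.25, turning to -0.16 with normexp). SELENOT, a selenoprotein of the ER, stood at 3.06 ± 0.27, with its 3 probes between 0.77 and 4.07. The signal peptidase subunit SPCS2 (2.56 ± 0.16), the translocon-associated SSR4 (2.28 ± 0.19) and SRP14 of the signal recognition particle (2.27 ± 0.22) were also positive, and SEC61A1, the pore of the translocon, was negative (-1.47 ± 0.42). Oxidative phosphorylation and mitochondrial import genes had 5 positive calls among 7 (median 1.38, turning to -0.043 with normexp). TIMM8A, an import chaperone of the intermembrane space, was at 2.97 and 2.84 in Stylo parent, -0.92 and -0.74 in Stylo CSC, -0.27 and -0.35 in Star parent, and -0.52 and -0.55 in Star CSC. Only Stylo parent was high for TIMM8A (interaction 3.52 ± 0.15, adjusted p = 4.92e-05). Rab GTPases had 3 positive and 1 negative call among 13 (median 0.67, turning to -0.21 with normexp). RAB9A, which acts between late endosomes and the Golgi, led them at 1.88 ± 0.17 and was not called with normexp (0.51) or spike-in scaling (1.42).

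**Figure D3:**
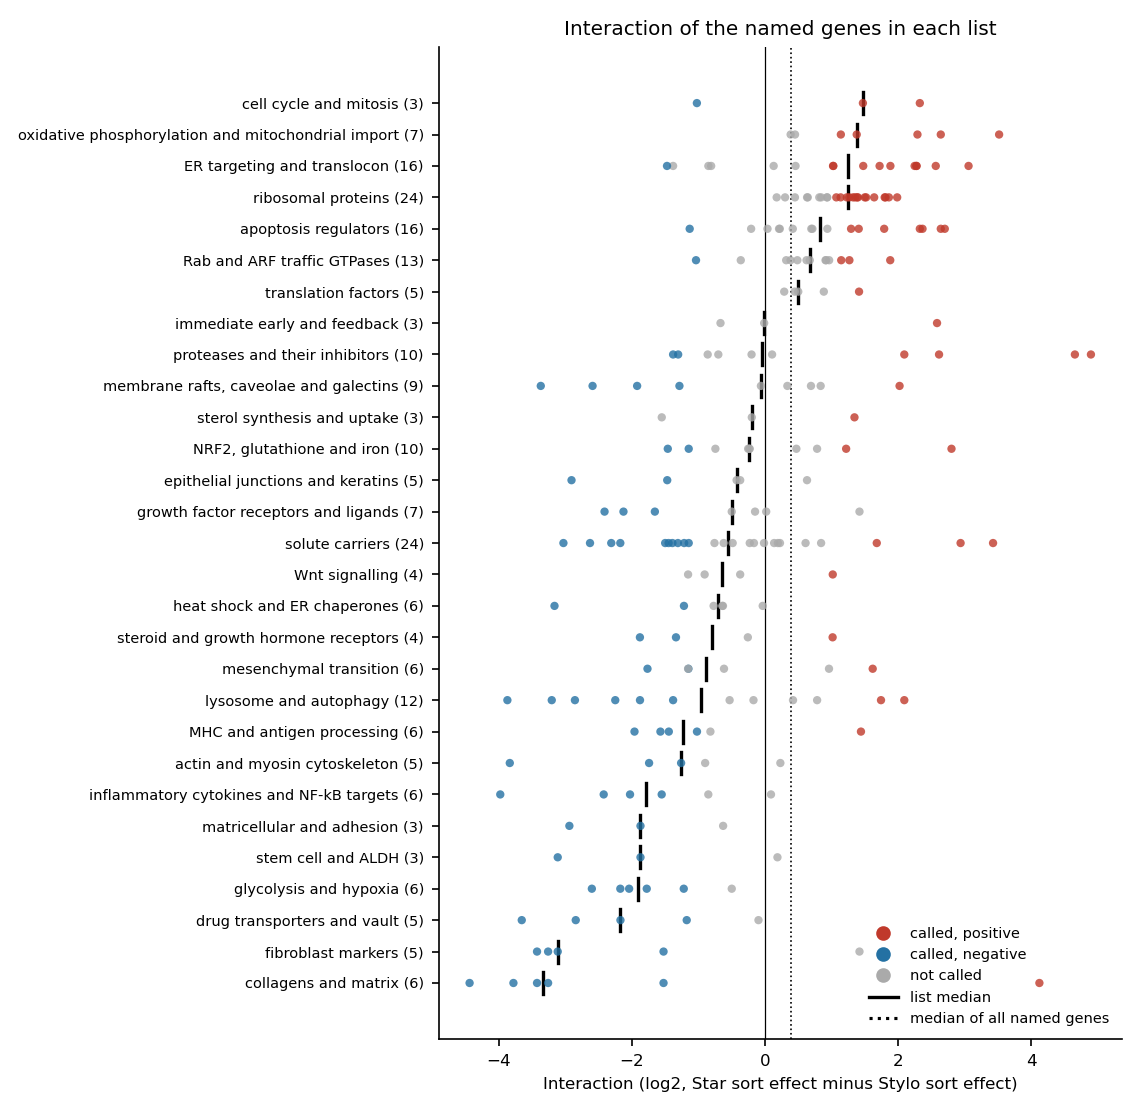
Points are named genes detected on all 8 arrays, in rows of gene lists with at least 3 such members (number in brackets), and the x axis gives the interaction in log2 at the 75th percentile scaling; black bars are list medians and the dotted line is the median of all named genes, 0.39. Collagens and matrix, fibroblast markers and drug transporters lie at the negative end. The ribosomal median of 1.25 turns negative with quantile normalization and normexp, and those of translation factors, ER targeting, Rab GTPases and oxidative phosphorylation turn negative with normexp.

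Apoptosis regulators had 7 positive and 1 negative call among 16 (median 0.82), beside 33.5% positive and 20.4% negative over all named genes. Their share called was near the 53.9% over all named genes. PMAIP1, the BH3-only protein NOXA, gave 2.70 ± 0.21, CYCS, cytochrome c, 2.64 ± 0.12, and CASP9 was the negative call (-1.13 ± 0.17). BAX (-0.21), BCL2 (0.22) and MCL1 (0.69) were not called. BIRC5, survivin, gave 2.32 ± 0.62 (adjusted p = 0.018) with Star CSC arrays at 0.21 and 1.67. The BIRC5 call was lost with quantile normalization (1.596), with normexp (0.89), and when Star parent replicate 2 (2.20), Stylo CSC replicate 1 (2.32) or Stylo CSC replicate 2 (2.33) was left out. It was kept without Star CSC replicate 1 (3.06) or 2 (1.593). PRKDC, a DNA-end kinase, gave -1.83 ± 0.14. SOCS3, a feedback inhibitor of cytokine receptors, gave 2.58 ± 0.37.

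The next 4 lists stand beside 33.5% positive and 20.4% negative calls over all named genes. Antioxidant and iron genes split, with 2 positive and 2 negative calls among 10 (median -0.24): the superoxide dismutase SOD1 (2.80 ± 0.20) and PRDX1 (1.22) were positive, the thioredoxin reductase TXNRD1 (-1.46) and the cystine transporter SLC7A11 (-1.15) negative. Proteases and their inhibitors split too, with 4 positive and 2 negative calls among 10 (median -0.05), SLPI, PLAU, the kallikrein KLK1 (2.61 ± 0.39) and CTSK on the positive side. Solute carriers had 3 positive and 10 negative calls among 24 (median -0.56), with SLC35A1, which brings CMP-sialic acid into the Golgi, on the positive side (3.42 ± 0.18). Membrane raft and galectin genes had 1 positive and 4 negative calls among 9 (median -0.06). LGALS9, a galectin, had the most negative value (-3.37 ± 0.77), with Star CSC arrays at 6.18 and 4.48 (-4.22 without the first and -2.52 without the second), another probe at -1.16 and no call with normexp (-0.83).

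Growth factor receptors and ligands had 3 negative calls among 7 (median -0.50), HGF, the ligand of MET, at -2.41 ± 0.18 beside MET and FGFR2. Over all named genes 20.4% were negative and 33.5% positive. Steroid and growth hormone receptors had 1 positive and 2 negative calls among 4 (median -0.80), with NR3C1, the glucocorticoid receptor, at -1.88 ± 0.38. Wnt genes had 1 call among 4 (median -0.64), the receptor FZD6 at 1.02 ± 0.17, and sterol genes 1 among 3 (median -0.20), the demethylating oxidase MSMO1 at 1.34 ± 0.30. All 5 MSMO1 probes were called positive (1.34 to 2.73), and so were the 2 FZD6 probes (1.004 and 1.02). At the probes shown, neither FZD6 nor MSMO1 was called with quantile normalization (0.98 and 0.60) or normexp (0.40 and 0.037). MSMO1 was also not called with cyclic loess (0.982). FZD6 also missed the fold limit with median scaling (0.81) and the detected-probe percentile (0.84), and without Stylo parent replicate 1 (0.94), Stylo CSC replicate 2 (0.96), Star parent replicate 2 (0.95) or Star CSC replicate 1 (0.93). CKM, the muscle creatine kinase and the only muscle marker detected throughout, gave 2.62 ± 0.35, high in Stylo parent alone.

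Of the genes tied to the sort and to epithelial or mesenchymal state, CD44, the hyaluronan receptor used for sorting, was at 0.81 and 1.15 in Stylo parent, 2.01 and 1.92 in Stylo CSC, 2.00 and 2.10 in Star parent, and 1.15 and 1.19 in Star CSC. Sorted CMT-Stylo cells and unsorted CMT-Star cells were high, and Star CSC touched the Stylo parent range. The sort effects of 0.99 ± 0.14 and -0.88 ± 0.14 were each short of 2-fold, and the interaction was -1.87 ± 0.19 (adjusted p = 0.000389). CD44 and TNC made up the 2 negative calls among 3 matricellular and adhesion genes (median -1.87). ALDH3A1, an aldehyde dehydrogenase, fell in both lines, by 1.69 ± 0.19 and by 1.51 ± 0.19, with an interaction of 0.18 and a 95% confidence interval from -0.47 to 0.84; its other probe was called at 1.59. VIM, the mesenchymal filament vimentin, had an interaction of -0.62 ± 0.16, short of 2-fold, which was called with quantile normalization (-1.31), cyclic loess (-1.61) and normexp (-2.20). The other VIM probe stood at 0.19, not called at the main scaling. KRT14, the basal keratin, stood at 0.63 ± 0.25 and was not called (adjusted p = 0.0678). JUP, plakoglobin of epithelial junctions, was negative at -2.91 ± 0.23 with its other probe at -3.31, and made up, with TJP1 (-1.47), the 2 negative calls among 5 junction and keratin genes (median -0.43). Mesenchymal transition genes had 1 positive and 2 negative calls among 6 (median -0.89), S100A4 being positive (1.62 ± 0.16). ALDH1A1, PROM1, CDH1, KRT19, MX1 and CXCL10 were not well above background on every array and have no interaction here, and CD24 has no probe named here.

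**Figure D4:**
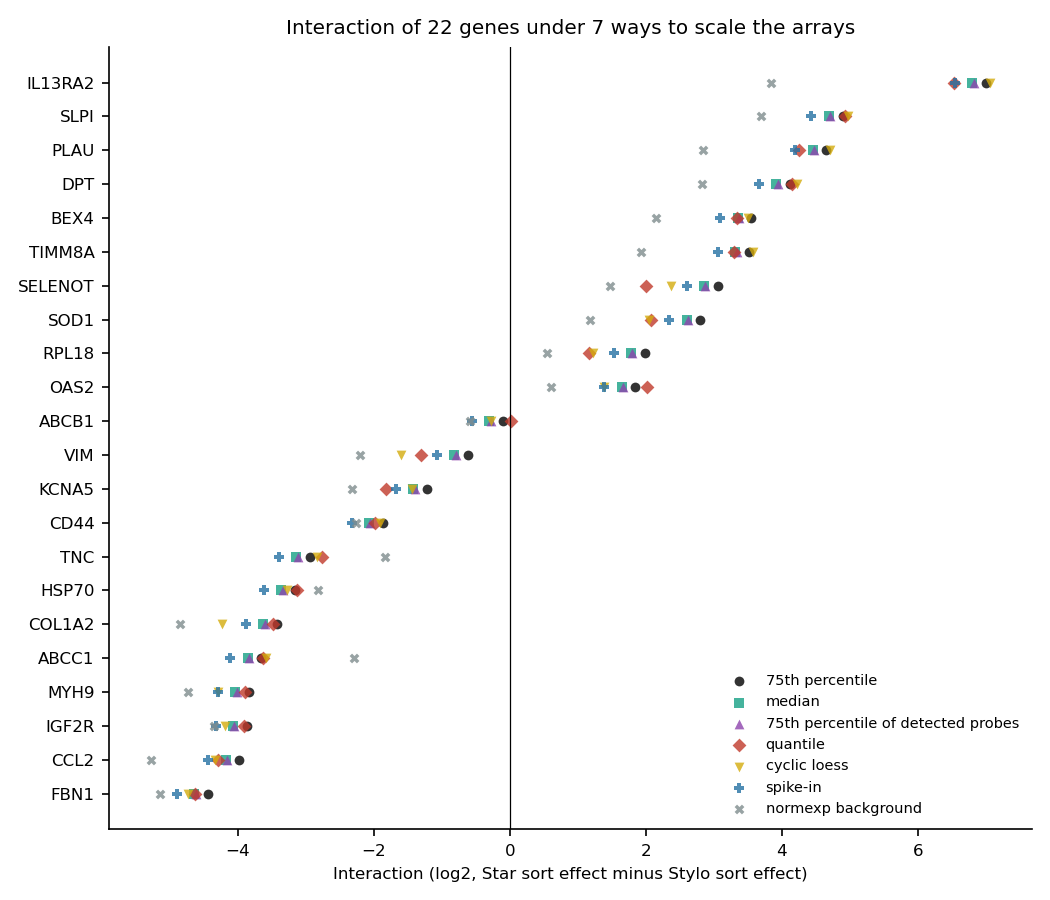
The x axis gives the interaction in log2 of 22 genes (rows) under 7 ways of scaling or background correction (symbols). IL13RA2, SLPI, PLAU, DPT and BEX4 stay positive and FBN1, CCL2, IGF2R, MYH9 and TNC negative under each of the 7, ABCB1 lies on both sides of 0, and the normexp values of RPL18, OAS2 and SELENOT are less than those of the main scaling.

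At the 2-fold limit, MT2A (-1.0005, called) and PTGES2 (-1.0016, called) lay just inside, and STK25 (-0.998, not called) and PAX6 (0.99, not called) just outside, with SEs of 0.16 to 0.19. The other kept probe of STK25 was called (-1.30), and that of PAX6 was not (0.28). MT2A missed the limit without Stylo parent replicate 1 (-0.89), Stylo CSC replicate 1 (-0.95), Star parent replicate 2 (-0.99) or Star CSC replicate 2 (-0.90), and PTGES2 without Stylo parent replicate 2 (-0.90), Stylo CSC replicate 2 (-0.88), Star parent replicate 1 (-0.92) or Star CSC replicate 1 (-0.97), and with cyclic loess (-0.96). STK25 reached it without Stylo parent replicate 2 (-1.11), Stylo CSC replicate 2 (-1.06), Star parent replicate 1 (-1.11) or Star CSC replicate 2 (-1.02), and with median scaling (-1.20), the detected-probe percentile (-1.18), quantile normalization (-1.04) and the deposited table (-1.004). PAX6 reached it without Stylo parent replicate 1 (1.07), Stylo CSC replicate 1 (1.02), Star parent replicate 2 (1.07) or Star CSC replicate 1 (1.01). Of 288 genes with at least 2 probes kept, 90 had all probes called in 1 direction, 97 had none called, 97 had some called and 4 had probes called in both directions (DLA-64, THY1, TMBIM6 and ZBTB4).

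The interaction also varied with signal level. In 4 equal groups of probes from dim to bright, the share called was 46.7%, 53.6%, 55.4% and 58.4%, and the median interaction was 0.58, -0.03, -0.0036 and 0.35. With quantile normalization the medians were 0.68, -0.02, -0.096 and -0.089, so that of the brightest group turned negative and that of the dimmest stayed positive.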

How the data were processed

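Total RNA of 8 samples was labelled with Cy3 and hybridised to 1-colour Agilent arrays, and the authors' deposited scanner files hold 1 intensity per spot, the processed signal. Per the submitters' processing notes and the file headers, Agilent Feature Extraction 11.5.1.1 made it. The background and gradient steps inside that signal are taken as given. The deposited value table holds log2 values, which equalled the log2 processed signal minus each array's 75th percentile, centred per probe (differences between arrays were the same in both sets of values up to an SD of at most 5.59e-07 over the 18344 probes; column medians ran from -0.27 to 1.01). It served as an alternative. The RNA was column-purified and treated with DNase, per the labels' protocols.

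From the intensities, control spots and outlier-flagged spots were left out, spots of a probe were averaged on the log2 scale, and arrays were scaled by subtracting their 75th percentile. Saturation was flagged at no spot. Leaving out outlier spots removed probes from the 18421 detected on all 8 arrays, leaving 18344. limma 3.58.1 in R 4.3.3 (lmFit and eBayes) was fitted to 4 group means on the 26819 probes that both arrays of some group had well above background, and 5 contrasts were drawn, with two-sided tests and Benjamini-Hochberg adjustment over all probes fitted. All adjusted p-values are from this fit. The fit was tested on simulated data. Depth has no counterpart on arrays, and 2 arrays per group limit the precision of every value.

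Symbols came from RefSeq accessions without version (assembly UU_Cfam_GSD_1.0, used for names only), which matched 2353 of 43603 probes. A gene is represented by its kept probe with the highest mean level. Named are the largest interactions in each direction, those largest over the scalings, the largest opposite and shared effects, the genes nearest the fold limit, the leading called member of each of 37 lists (29 had 3 or more members) and a fixed set of sort, drug and lineage genes. A few genes are not reported here. Other list members were picked as examples after their values were seen. The members and lists were chosen with earlier results of these data known. Lists were counted, not tested. Same-numbered arrays deviated from their group means with correlations of -0.17 to 0.07, so replicate numbers did not enter as a block. Alternatives covered 5 other scalings, normexp with an offset of 50 on the median signal, filters, thresholds, variance models, the deposited table and leaving out each array.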

Additional observations from a re-analysis of the deposited data

Results flagged for a closer look

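Each value here is a test of the difference between the sort effects of CMT-Star and CMT-Stylo, and each was called. Most of these genes were named because they were called, so passing was fixed in advance and adds no support. The limits given above hold here too, such as the THY1 probe called the other way and the calls lost in other settings. The interaction was called at 9815 of 18344 probes. Positive values among the genes of the naming rule were IL13RA2 7.01, SLPI 4.89, PLAU 4.65, CA2 4.23, DPT 4.12, LOC474938 3.69, GUCY1B1 3.61, BEX4 3.55, TIMM8A 3.52, SLC35A1 3.42, SELENOT 3.06, SOD1 2.80, PMAIP1 2.70, CKM 2.62, SOCS3 2.58, BIRC5 2.32, RPL18 1.98, RAB9A 1.88, OAS2 1.84, EIF4A1 1.41, MSMO1 1.34 and FZD6 1.02 on the log2 scale. Negative values were FBN1 -4.44, LOC751814 -4.08, CCL2 -3.98, LOC403585 -3.93, IGF2R -3.87, MYH9 -3.84, ABCC1 -3.66, COL1A2 -3.43, LGALS9 -3.37, BDKRB1 -3.36, ARHGAP1 -3.22, HSP70 -3.16, THY1 -3.12, TNC -2.94, JUP -2.91, MVP -2.85, ADM -2.60, PTGES -2.43, HGF -2.41, ABCC5 -2.17, TAPBP -1.96, NR3C1 -1.88, CD44 -1.87, CDH2 -1.77, IL18BP -1.29, CA9 -1.22, DUOX1 -1.16, MT2A -1.0005 and PTGES2 -1.0016. Groups of 2 arrays are too small to single out an array.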

How the results depend on the processing

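The count of interaction calls was 9815 and lay between 9348 and 9865 when each array was left out in turn, between 9365 and 9615 with cyclic loess, median scaling, quantile normalization and the detected-probe percentile, and at 9802 in the deposited table, 7785 with normexp, 5225 with spike-in scaling and 3981 at a 4-fold limit. Of the 9365 calls with quantile normalization, 8934 were shared with the main setting. The Star sort effect had 15629 calls with spike-in scaling (Stylo 12370), 823 with normexp, 5701 without a fold limit and 209 at a 4-fold limit (1176 to 1671 with each array left out), and the Stylo effect 3442 at a 4-fold limit (9592 to 9938). Opposite calls numbered 139, 135, 2515 and 9 under those 4 settings in the same order (299 to 419), and Stylo parent stood apart in 404 calls with spike-in scaling. The cause of these changes was not tested. The interaction cannot be formed without the Stylo parent arrays. With both left out, an alternative chosen after seeing that they were dim, the Star effect had 1277 calls. With the replicate block there were 9808 interaction calls, 9867 Stylo and 1259 Star calls and 317 opposite ones, and of the 58 genes of the naming rule it changed the call of KCNA5 alone (adjusted p = 0.00396).

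Signs turned for ALDH3A1 with median scaling (-0.016), cyclic loess (-0.11), quantile normalization (-0.18), spike-in scaling (-0.27), normexp (-1.05) and without Stylo parent replicate 2 (range with each array left out, -0.047 to 0.42), and for ABCB1 with quantile normalization (0.012). With normexp, KRT14 (-0.21), PAX6 (-0.37) and PTGES2 (0.64) turned, as did the list medians of ribosomal proteins (-0.25), translation factors (-0.80), ER targeting (-0.16), Rab GTPases (-0.21), oxidative phosphorylation (-0.043) and sterol synthesis (0.037), and with quantile normalization that of ribosomal proteins (-0.037). With each array left out, medians ran from -0.11 to 0.0069 for proteases, from -0.56 to 0.16 for sterol synthesis, from -0.17 to 0.047 for membrane rafts and from -0.22 to 0.19 for immediate early genes. Spike-in scaling, resting on 7 probes, also ended the calls of CA9, DUOX1, EIF4A1, FZD6, MSMO1, MT2A, OAS2, PTGES2, RAB9A and RPL18. Signal over background limits dim probes: 2723 probes were detected on all arrays but those of Stylo parent and have no interaction here.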

Other observations

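Some probes outside the 18344 bear on genes described above. Values here are processed signals before scaling, on arrays of unequal brightness, so they show detection and not folds. The other 2 probes of IL13RA2 were well above background in Stylo parent (281 to 431), Star parent (180 to 269) and Star CSC (203 to 239) and not in Stylo CSC (6.32 to 10.6). Another probe of PLAU read 428 and 191 in Stylo parent, 54.0 and 45.5 in Star parent and 55.6 and 72.2 in Star CSC, and stayed under the detection flag in Stylo CSC (11.2 and 9.74). ALDH1A1, an aldehyde dehydrogenase whose activity the sort can detect, was well above background on the 2 Star CSC arrays alone (53.7 and 44.5, against 2.69 to 11.8 elsewhere). The same held for the interferon-induced OASL (214 and 176, against 1.86 to 10.9).

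PROM1, a stem cell surface marker, lacked the flag for well above background on the Stylo parent arrays (4.79 and 7.70) and read 143 and 155 in Stylo CSC, 391 and 590 in Star parent and 2073 and 1932 in Star CSC. MX1, an interferon-induced GTPase, likewise lacked the flag there, and its brighter probe read 1104 and 1059 in Stylo CSC, 2333 and 2089 in Star parent and 28990 and 23450 in Star CSC. Of all probes, 287 were well above background in Star CSC alone, 205 in Stylo CSC alone, 187 in Star parent alone and 94 in Stylo parent alone.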
